A study of Schmidtea mediterranea with 15 samples.

Results

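Of 26671 transcript models measured in whole planarians, 108 had a raised mean level at 24 h after gamma irradiation and a mean closer to the unirradiated one at 96 h. They were chosen from deposited RPKM values, which are reads per kilobase of model scaled by a divisor close to the library's total reads. For each model, L is the log2 ratio of its mean RPKM at a time to its mean at 0 h, with 0.5 RPKM added to both. Members had L at 24 h (L24) of at least 0.7, L at 96 h (L96) above -0.4 and below 0.6, and a mean of at least 2 RPKM at 24 h. The levels at 0, 24 and 96 h therefore chose the members, and the changes at 24 and 96 h against 0 h are given as a description, with no test. Tests that set 48 or 72 h against one of these times are not independent of the choice, which is said beside them. The levels at 48 and 72 h played no part in the choice.

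The worms were adults of the CIW4 clonal line of Schmidtea mediterranea, starved for at least a week, and polyA RNA was sequenced from whole worm tissue. By the labels there are 5 groups of 3 libraries: worms taken 24, 48, 72 or 96 h after a dose of 6000 rad, and worms without irradiation (0 h). Whether the 3 libraries of each group are separate cultures is not stated, so p-values cover the spread between these libraries, which may be technical. Unirradiated worms were given at 0 h only, so irradiation, elapsed time and handling cannot be told apart.

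Planarians replace their tissues from neoblasts, a population of dividing stem cells that ionising radiation destroys, after which the post-mitotic progeny and the differentiated tissues are no longer renewed. Transcripts that rise in a whole irradiated worm can come from cells that respond to damage, or can take a larger share of the RNA as other cells are lost. In RNA of whole worms, more cells of a type and more RNA per cell cannot be told apart. The deposited IDs come without gene names, so no role, pathway or cell type is attached to any member, and cell type markers were not checked. Members are described by their level, timing, length and spread.

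Whole reads could be worked out from the steps of the RPKM values for all 26671 models. They came to 16435841 to 30707808 per irradiated library and 9749391 to 13801926 per 0 h library, so each 0 h library was the shallower. This difference runs with the comparison of irradiated and unirradiated worms, and its part in the results was not tested. The divisor of a library in the RPKM values was 0.974 to 1.027 times its recovered reads, lowest in 72 h replicate 2. The values were thus not scaled by these read totals alone. The median coefficient of variation of the members between the libraries of a group was 9.67% at 24 h and 10.5% at 0 h. Over tested models with the same minimum of 2 RPKM at 24 h it was lower, at 5.45% and 5.99%.

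The rises that defined the group were moderate. L24 ran from 0.70 to 1.93 with a median of 0.82 and quartiles of 0.75 and 0.98, and 26 of the 108 members reached an L24 of at least 1. Many lay near the limit, since 48 members had an L24 below 0.8, and 103 further models met the other limits with an L24 from 0.6 to below 0.7. The members nearest to the 3 other limits had an L96 of 0.579, an L96 of -0.374 and a mean of 2.05 RPKM at 24 h. The nearest models outside them had an L96 of 0.602, an L96 of -0.567 and a mean of 1.99 RPKM. At 96 h the median L was 0.32, so the return was partial for many: 35 members lay at 0.4 or more, 19 above 0.5 and 12 below 0.

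The members ranged widely in abundance. At 24 h their mean levels ran from 2.05 to 12372 RPKM with a median of 11.4 RPKM, against a median of 10.7 RPKM over the tested models that also reached 2 RPKM at 24 h. Together they took 1.13%, 1.16% and 1.17% of the reads of the 24 h libraries, against 0.653%, 0.628% and 0.639% of those of the 0 h libraries. A single model, SMED30010350, accounted for about as many reads as the other 107 together. Without it the members took 0.60%, 0.60% and 0.611% at 24 h, against 0.325%, 0.317% and 0.319% at 0 h. The group values were thus alike in the 3 libraries of each time and did not overlap between these times, which the rule fixed.

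**Figure D1:**
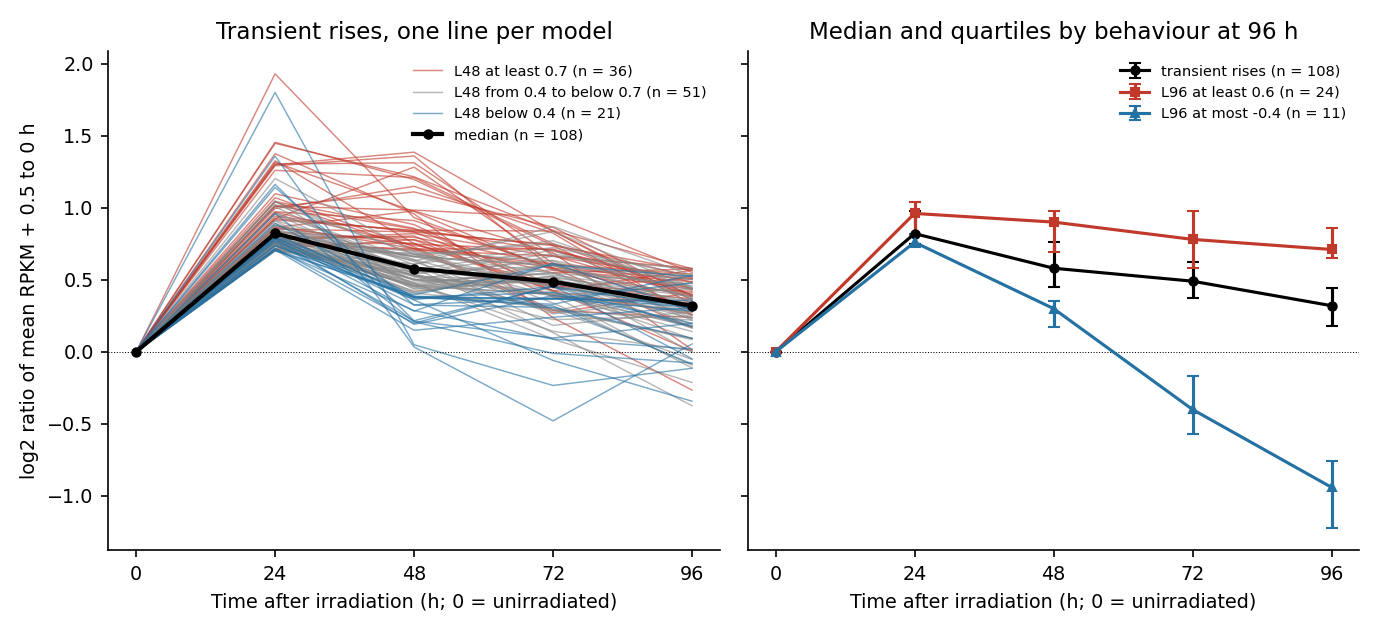
Time courses after irradiation, with time in hours on the x axis (0 h is unirradiated) and the log2 ratio of mean RPKM + 0.5 to that at 0 h on the y axis. Left, 1 line per member, coloured by its value at 48 h, with the median of the 108 in black; right, medians with quartiles as bars for the 108 members, for 24 models with the same rise but an L96 of at least 0.6, and for 11 with an L96 of at most -0.4. The median of the members is highest at 24 h (0.82) and comes down over the 3 later times (0.58, 0.49 and 0.32).

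At 48 and 72 h, the times that the rule left free, the members had not returned to the unirradiated level as a group. L at these times still uses the 0 h mean, in which the members had been chosen as low, and this favours higher values. The median L was 0.58 at 48 h (quartiles 0.45 and 0.76) and 0.49 at 72 h (quartiles 0.37 and 0.62), against 0.02 at both times over the 21231 models that were tested. At 48 h, 36 members still stood at an L of at least 0.7, 51 stood from 0.4 to below 0.7, and 21 below 0.4. At 72 h the same bands held 18, 55 and 35 members. No member had an L below 0 at 48 h and 4 did at 72 h. As a share of L24, the median member kept 68.4% at 48 h, 55.0% at 72 h and 36.8% at 96 h, and members ranged from 2.5% to 139% at 48 h. The choice of members for a high value at 24 h favours low shares. Their choice for a low value at 0 h favours high shares, because L at each time uses the same 0 h mean. The balance of these effects was not measured.

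Of the 107 members that entered the test, 91 were called higher at 48 h than at 0 h and 76 at 72 h than at 0 h (limma, Benjamini-Hochberg adjusted p below 0.05 over all tested models). The backgrounds are 20.5% and 22.1%, the shares of all 21231 tested models called higher in these comparisons. Both comparisons use the 0 h libraries in which the members had been chosen as low, so the counts are not independent of the choice. A total of 74 members were called at both times, 17 at 48 h alone, 2 at 72 h alone and 14 at neither. Of the 16 not called at 48 h, 13 had a mean under 5 RPKM at 24 h. One member was called lower at 72 h than at 0 h, against a background of 21.5%, and it is the member with the second-largest L24, described below.

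The median level moved together in the 3 libraries of a time. Per library, the median log2 ratio of the members to the 0 h mean was 0.85, 0.81 and 0.86 at 24 h, and 0.62, 0.62 and 0.56 at 48 h. At 72 h it was 0.43, 0.60 and 0.47, and at 96 h it was 0.35, 0.29 and 0.35. The 24 h libraries, in which the members had been chosen as high, stood above all others. Those at 48 and 72 h overlapped because of 72 h replicate 2. Without that library the number of members at an L of at least 0.7 at 72 h was 8 in place of 18. The same medians over all tested models stayed between -0.02 and 0.03 in all libraries.

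**Figure D2:**
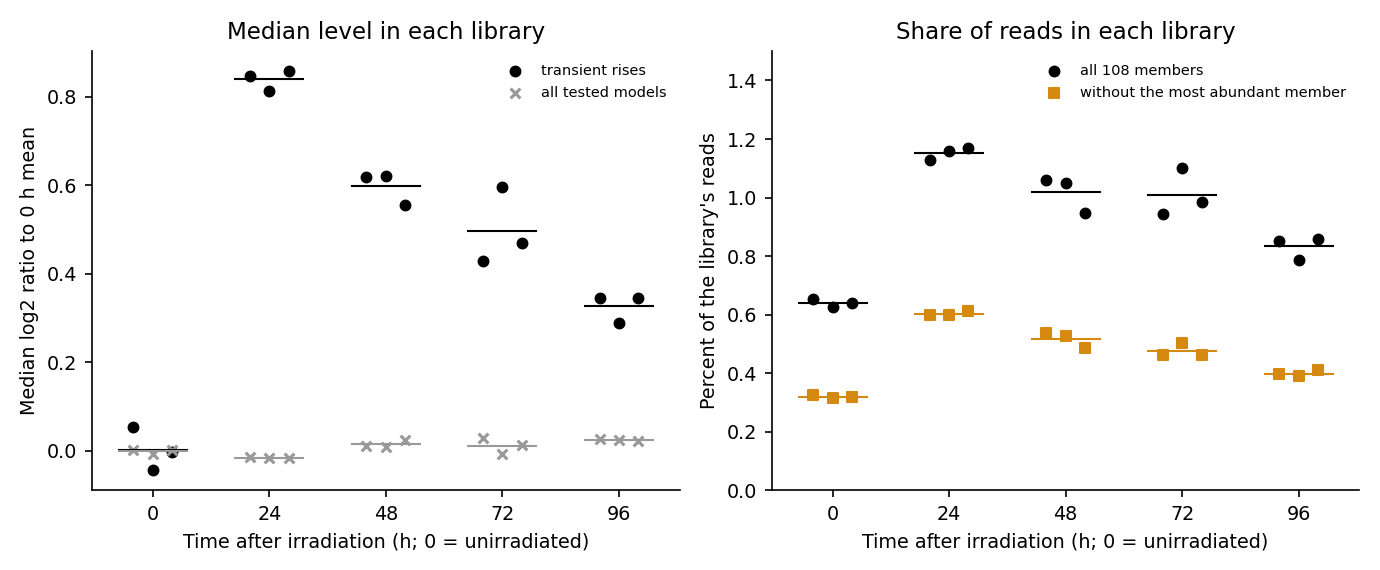
Members in each of the 15 libraries by time in hours (0 h is unirradiated), with 1 point per library and a line at the mean of the 3. Left, the median log2 ratio to the 0 h mean for the 108 members and for all tested models; right, the percent of the library's reads taken by the members, with and without the most abundant one, SMED30010350. The 24 h libraries lie highest in both panels, at 1.13% to 1.17% of reads, and 72 h replicate 2 lies above the other 72 h libraries.

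Most members had their highest mean at the first time after irradiation, at which they had been chosen as high. The rule excluded a highest mean at 0 or 96 h, so the counts by time are not independent of the choice. The highest of the 5 means was the 24 h one for 96 members, the 48 h one for 11 and the 72 h one for 1. None of these 12 later-peaking members was called higher at 48 h than at 24 h (limma, lowest adjusted p = 0.293), in a comparison with the 24 h libraries in which they had been chosen as high. Their changes ran from -0.09 to 0.37 on the log2 scale. The member with its highest mean at 72 h had 3.24 ± 0.633 RPKM at 72 h and 3.19 ± 0.560 RPKM at 24 h (SD, n = 3 each), which is within the spread. Leaving out 48 h replicate 3 raised the number with a peak at 48 h to 18, and leaving out 24 h replicate 3 lowered it to 7. The 72 h number ran from 0 to 6 as single libraries were left out.

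Between 24 and 48 h, 32 of the 107 tested members fell and none rose (limma, adjusted p below 0.05), against backgrounds of 6.28% lower and 6.80% higher among all tested models. The median log2 change was -0.26 for the members and 0.00 for all tested models. The members had been chosen as high in these 24 h libraries, which by itself favours a lower value at 48 h, so this count is not independent of the rule. Of the 32 members, 28 were still called higher at 48 h than at 0 h and 4 were not. This compares with 91 of all 107 tested members and 20.5% of all tested models.

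The comparison of 72 h with 48 h set only libraries outside the rule against each other, with a spread estimated from all 15 libraries. The rule still asked for a lower level at 96 h than at 24 h, which favours falls in between. At 72 h against 48 h, 13 members fell (12.1% of 107) and 1 rose (limma, adjusted p below 0.05). Among all tested models, 1.40% were called lower and 0.410% higher. The median log2 change was -0.11 for the members and -0.00 for all tested models. The mean log2 level was lower at 72 h in 77 of the 107 members, and in 10826 of all 21231 tested models. Among models with the same rise, it was lower in 17 of 24 with an L96 of at least 0.6. It was lower in 9 of 11 with an L96 of at most -0.4. In 31 members (29.0%) the 3 values at 72 h all lay below the 3 values at 48 h, against 8.70% of all tested models. In 5 members they all lay above, against 8.00%. The count of 13 was 7 without 48 h replicate 1 and 6 without 48 h replicate 2, where the shares of all models called lower were 0.810% and 0.787%. It was 20 with limma-voom on the recovered reads, with 2.17% of all models called lower, and 7 in a fit to only the 6 libraries compared, with 0.518%.

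The 13 members that fell between 48 and 72 h changed by -0.22 to -0.78 on the log2 scale (median -0.39), and in all 13 the values at 72 h lay below all values at 48 h. Their means at 48 h ran from 4.42 to 1065 RPKM. Their median L was 0.78 at 48 h, 0.42 at 72 h and 0.09 at 96 h. At 72 h, 8 of them were called higher than at 0 h, where they had been chosen as low. This compares with 76 of all 107 tested members and 22.1% of all tested models. Between 72 and 96 h, 5 of the 13 fell again, in a comparison with the 96 h libraries that the rule had used. This compares with 17 of the 107 and 3.60% of all tested models.

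Between 72 and 96 h, 17 of the 107 members fell and none rose (limma, adjusted p below 0.05), against backgrounds of 3.60% lower and 1.34% higher. The 96 h libraries were used by the rule, which capped the level at 96 h, so these falls are partly fixed by the choice. Without 72 h replicate 2, the library in which the members stood highest at that time, the count was 11, with 1.45% of all models called lower.

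Members left their peak over different intervals. The largest step down in L lay between 24 and 48 h for 49 members, between 48 and 72 h for 26 and between 72 and 96 h for 33. Over the 4 irradiated times, from 24 to 96 h, the median L of the first set was 0.81, 0.45, 0.45 and 0.31. That of the second was 0.89, 0.81, 0.45 and 0.37, and that of the third 0.78, 0.66, 0.66 and 0.28. These sets were formed from the values they describe and carry no test. In the tests of the 3 intervals, 46 of the 107 members were called lower in at least 1 interval and 3 in all of them, against 9.01% and 0.495% of all tested models. The first and the last of these intervals use the 24 h or 96 h libraries that chose the members, so these counts are not independent of the rule. The other 61 were called lower in none, and 22 of these had a mean under 5 RPKM at 24 h.

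**Figure D3:**
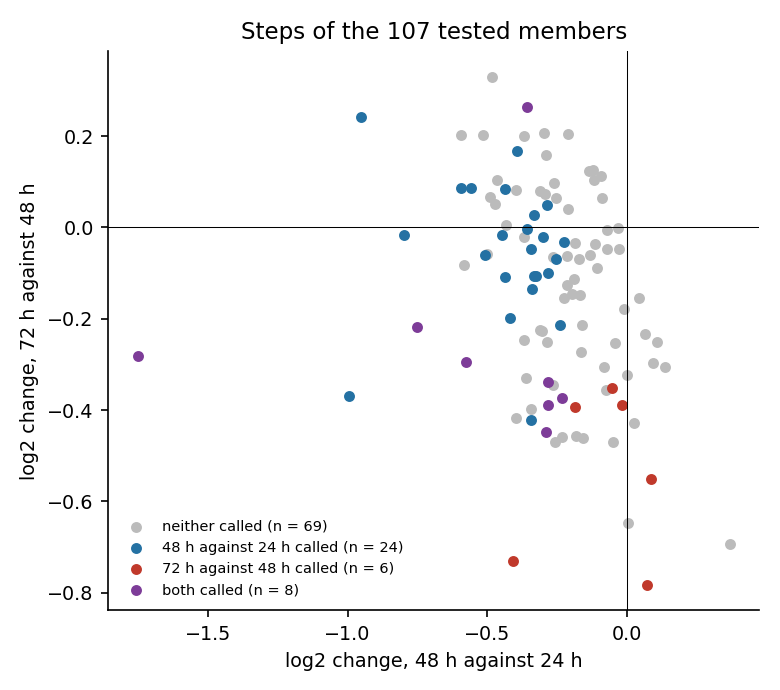
Log2 change of the 107 tested members at 48 h against 24 h (x axis) and at 72 h against 48 h (y axis), 1 point per member. Colours show which of the 2 changes was called by limma at an adjusted p below 0.05: 24 members were called for the first alone, 6 for the second alone, 8 for both and 69 for neither. Most points lie left of 0 on the x axis, and the member with the strongest first step, at -1.75, lies far from the others.

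Because the IDs carry no gene names, only 4 members are named: those with the largest L24 and the highest level at 24 h, and the 2 largest non-overlapping falls called at 72 h against 48 h. Other members described below were picked after their values were seen and are given by their rank.

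SMED30017313 had the largest L24, 1.93. It is a short model of 336 bases. Its 3 libraries had 27.3, 33.7 and 31.9 RPKM at 24 h, against 6.66, 9.0 and 7.67 RPKM at 0 h. The values were 16.4, 13.6 and 15.8 RPKM at 48 h, 9.86, 14.4 and 11.2 RPKM at 72 h, and 9.49, 11.2 and 11.4 RPKM at 96 h. Each 24 h library thus stood above all others by a wide margin, and the values at 72 and 96 h overlapped. At 72 h against 48 h the log2 change was -0.37 (SE 0.13, limma adjusted p = 0.216), with values of both times that overlapped. The values rest on 155 to 278 reads at 24 h and 30 to 32 reads at 0 h.

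The member with the second-largest L24, 1.8, kept the smallest share of its L24 at 48 h among the 107 tested members, 2.73%. It had 183, 210 and 197 RPKM at 24 h, against 57.8, 55.3 and 55.5 RPKM at 0 h. At 48 h it had 60.7, 60.0 and 53.8 RPKM, at 72 h 45.5, 50.3 and 47.5 RPKM, and at 96 h 52.6, 51.3 and 51.8 RPKM. The 24 h values were far above the rest, those at 48 h overlapped with those at 0 h, and those at 72 h were the lowest of all. It fell again at 72 h against 48 h by 0.28 on the log2 scale (SE 0.05, limma adjusted p = 0.0116). The 3 other members that fell by 48 h and were not called above 0 h then had an L of 0.15 to 0.32.

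SMED30010350, a model of 441 bases, was the most abundant member, with overlapping values from 24 to 72 h. It had 11627, 12761 and 12730 RPKM at 24 h, against 7427, 6935 and 7250 RPKM at 0 h. At 48 h it had 11649, 11987 and 10553 RPKM, at 72 h 10941, 13916 and 12003 RPKM, and at 96 h 10333, 8922 and 10127 RPKM. The values at 96 h lay between those of these 3 times and those at 0 h. At 72 h against 48 h the log2 change was 0.10 (SE 0.09, limma adjusted p = 0.699). Its values depended on the normalization. Quantile normalization gives each rank the same value in all libraries, so a model then changes only as far as its rank does. After quantile normalization its L was 0.26 at 24 h, below the limit for a member, in place of 0.78. The limma log2 change against 0 h was then 0.23 in place of 0.66 at 48 h, and 0.14 in place of 0.76 at 72 h.

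The second most abundant member also lay highest at 24, 48 and 72 h. It had 2617, 2748 and 2829 RPKM at 24 h, against 1373, 1307 and 1387 RPKM at 0 h. The values were 2754, 2833 and 2455 RPKM at 48 h, 2627, 2703 and 2448 RPKM at 72 h, and 1995, 1906 and 2058 RPKM at 96 h. These 3 times overlapped, and all 96 h values lay below them and above all 0 h values. The log2 change at 72 h against 48 h was -0.05 (SE 0.06, limma adjusted p = 0.819).

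The third most abundant member came down earlier. It had 1337, 1349 and 1202 RPKM at 24 h, against 782, 741 and 773 RPKM at 0 h. It had 1088, 1032 and 1075 RPKM at 48 h, 795, 823 and 822 RPKM at 72 h, and 633, 687 and 661 RPKM at 96 h. No 2 of the 4 irradiated times overlapped. It fell at 72 h against 48 h by 0.39 on the log2 scale (SE 0.04, limma adjusted p = 0.000134).

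The fourth most abundant member held at 48 h and then fell. It had 747, 805 and 749 RPKM at 24 h, against 434, 421 and 437 RPKM at 0 h. It had 743, 738 and 733 RPKM at 48 h, 579, 584 and 570 RPKM at 72 h, and 411, 441 and 444 RPKM at 96 h. The 72 h values lay below all 48 h values and the 96 h values overlapped with those at 0 h. The fall at 72 h against 48 h was 0.35 on the log2 scale (SE 0.04, limma adjusted p = 3.19e-05).

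SMED30011148 had the largest fall called between 48 and 72 h. It had 2.21, 2.18 and 2.67 RPKM at 72 h, against 4.34, 5.02 and 3.90 RPKM at 48 h. It had 1.71, 1.59 and 0.953 RPKM at 0 h, 4.44, 4.67 and 3.47 RPKM at 24 h, and 2.18, 1.91 and 1.92 RPKM at 96 h. The level was thus high at 24 and 48 h and in between at 72 and 96 h, with no overlap between 48 and 72 h. From 48 to 72 h it changed by -0.78 on the log2 scale (SE 0.16, limma adjusted p = 0.0171). The 3 values rest on 18 to 41 reads at 72 h, against 50 to 57 reads at 48 h. The call was lost without 48 h replicate 1, 48 h replicate 2 or 72 h replicate 2 (adjusted p = 0.0600, 0.0858 and 0.0724).

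SMED30035264 had 2.57, 3.75 and 2.93 RPKM at 72 h, against 5.94, 5.41 and 4.88 RPKM at 48 h. It had 3.16, 2.01 and 2.46 RPKM at 0 h, 7.55, 6.01 and 8.61 RPKM at 24 h, and 2.07, 2.28 and 1.75 RPKM at 96 h. Its mean was lower at each step after 24 h, and the 72 h values overlapped with those at 0 h. From 48 to 72 h it changed by -0.73 (SE 0.16, limma adjusted p = 0.0299), with 38 to 67 reads at 72 h, against 80 to 116 reads at 48 h. The call was lost in 5 of the 6 fits that left out 1 of the compared libraries, with 72 h replicate 2 as the exception.

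**Figure D4:**
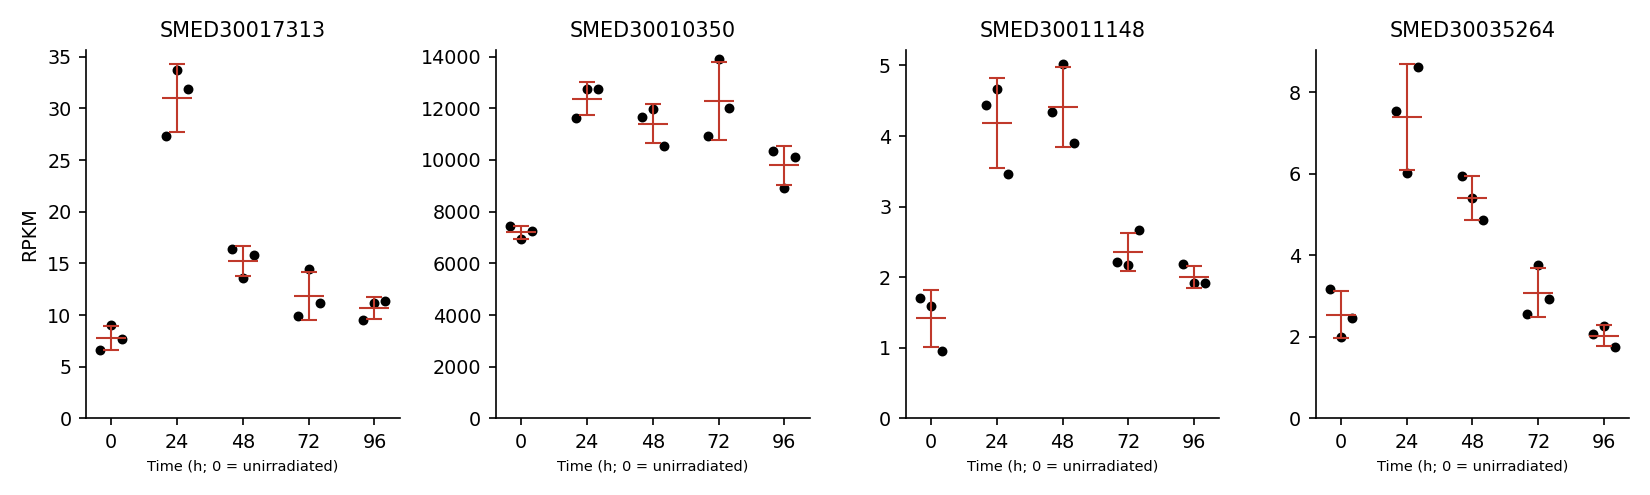
RPKM of the 4 named members by time in hours (0 h is unirradiated), with 1 black point per library and the mean ± SD of 3 libraries in red; the y axes start at 0 and differ. SMED30017313 has its 3 highest values at 24 h (27.3 to 33.7 RPKM), SMED30010350 overlaps from 24 to 72 h, and SMED30011148 and SMED30035264 lie lower at 72 h than at 48 h.

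One member was called higher at 72 h than at 48 h. The member of rank 30 by L24 had 31.0, 32.1 and 31.6 RPKM at 72 h, against 26.5, 26.8 and 25.4 RPKM at 48 h, with no overlap. It had 15.5, 16.7 and 19.0 RPKM at 0 h, 35.3, 31.0 and 35.0 RPKM at 24 h, and 24.8, 25.6 and 24.3 RPKM at 96 h. It was the only member called higher at 72 h against 48 h, by 0.26 on the log2 scale (SE 0.06, limma adjusted p = 0.0490). The rise was called in none of the 6 fits that left out 1 of the libraries compared.

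Another member rested on a single library. The member of rank 6 by L24 had 0.582, 5.71 and 0.893 RPKM at 24 h, against 0.355, 0.743 and 0.791 RPKM at 0 h. Of the 12 values at other times, only 1.25 RPKM in 48 h replicate 2 exceeded 1 RPKM. It was the only member not tested, because fewer than 3 libraries reached 1 RPKM. Its high mean at 24 h rests on replicate 2, with 57 reads. The other 107 members each reached 1 RPKM in at least 3 libraries outside 24 h.

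The number of calls varied with abundance. Of 25 tested members with a mean under 5 RPKM at 24 h, 12 were called higher than 0 h at 48 h and 7 at 72 h, against 7.68% and 8.76% of all tested models from 2 to below 5 RPKM. Of 60 members from 5 to below 50 RPKM, 58 and 51 were called at these times, against 28.5% and 30.9% of all tested models at that level. Of 22 members of at least 50 RPKM, 21 and 18 were called, against 56.3% and 56.7%. Among all models the calls thus became more frequent with each band, while among the members only the lowest band stood clearly lower. The 0 h libraries in these comparisons had chosen the members. The median L24 was alike, at 0.82, 0.82 and 0.85 from low to high abundance. The median at 48 h was 0.44, 0.57 and 0.69 in the same order. Of the 13 falls called at 72 h against 48 h, 1, 4 and 8 were in these bands, against 0.359%, 1.15% and 8.14% of all tested models in them. The low band had a median of 7.0 reads at 0 h and the high band 863, and the part of this difference in the calls was not tested.

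Members were short models, a property that the rule did not use directly. Their median length was 626.5 bases (182 to 2316 bases), against 1129 bases over all tested models. It was 1313 bases over tested models with at least 2 RPKM at 24 h. Models with the same rise were shorter still. The median was 398 bases in the 24 with an L96 of at least 0.6 and 531 bases in the 11 with an L96 of at most -0.4. Short length was thus not particular to the members. Of 1881 models under 500 bases with at least 2 RPKM at 24 h, 2.23% were members. The share was 0.946% from 500 to under 1000 bases, 0.446% from 1000 to under 2000 bases and 0.072% at 2000 bases and over. Short models collect fewer reads, and members had a median of 52.7 reads at 0 h, against 199 for tested models with at least 2 RPKM at 24 h. Among models with at least 100 reads at 0 h the shares were 2.33%, 0.894%, 0.275% and 0.0761% from short to long, so the order was the same. Lengths were worked out from the RPKM steps, and whether short models are fragments of longer transcripts was not tested.

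**Figure D5:**
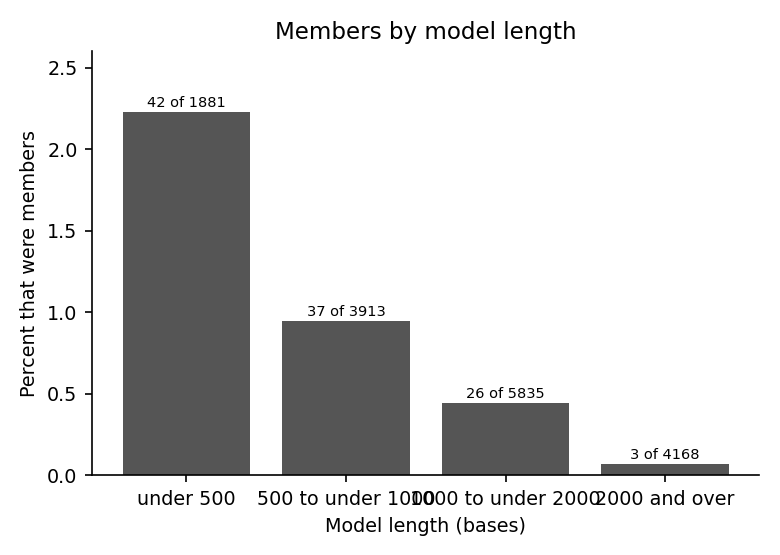
Percent of models with a mean of at least 2 RPKM at 24 h that were members (y axis), by model length in bases (x axis), with the number of members and of models over each bar. The share is 2.23% under 500 bases and 0.072% at 2000 bases and over.

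Among models with the same rise at 24 h, the level at 96 h separated the members from 24 models that stayed up (L96 of at least 0.6) and 11 that ended lower (L96 of at most -0.4). At 48 h the median L was 0.58 for the members, 0.90 for the models that stayed up and 0.30 for those that ended lower. At 72 h it was 0.49, 0.78 and -0.40. Between 48 and 72 h, in libraries outside the rule, 13 of 107 members, 2 of 24 models that stayed up and 9 of 11 that ended lower were called lower, with median log2 changes of -0.11, -0.09 and -0.58. The level at 96 h that formed the groups favours different falls before it, and the difference between the groups was not tested. Models that stayed up had low levels, with a median of 1.99 RPKM at 0 h, against 6.38 RPKM for the members and 47.1 RPKM for those that ended lower.

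To see the rise in libraries that had not chosen it, the rule was applied without 1 replicate number in all 5 groups, and the left-out libraries were then read. This gave 151, 139 and 133 models without replicates 1, 2 and 3, of which 91, 76 and 83 were among the 108. In the left-out libraries the median L24 was 0.63, 0.71 and 0.69, against 0.84, 0.79 and 0.78 in the libraries that chose them. L24 was above 0 in 145, 123 and 113 of these models, and reached 0.7 in 62, 73 and 63. Over all 21231 tested models, with all libraries, 10910 had an L24 below 0 and 199 reached 0.7. These 2 counts use means of 3 libraries and include models under 2 RPKM. The left-out L24 uses 1 library per time, so the counts are not on the same measure. In libraries that had not chosen them, most of the chosen models had a positive L24, but the median was smaller than in the choosing libraries. Membership near the limits changed with single libraries. In the same left-out libraries the median L was 0.50, 0.55 and 0.40 at 48 h, and 0.25, 0.26 and 0.23 at 96 h. L at 48 h lay below L24 there in 107, 102 and 106 of the 151, 139 and 133 models.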

How the data were processed

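PolyA RNA of whole worms was sequenced in 15 libraries, and the authors deposited RPKM values for 26671 transcript models, per the file headers and the values. CASAVA 1.8.2, Bowtie and edgeR are listed, with no role, in the submitters' processing notes. Not given in the sources used here are the transcript set, whether strand was used and how shared reads were treated, so near-identical, overlapping or antisense models may share reads. From the deposited RPKM steps, whole reads and lengths were worked out for 26671 models, within 0.001 reads. The 21231 models that reached 1 RPKM in 3 or more libraries were tested on log2(RPKM + 0.5), a scale that understates changes of low models, with limma 3.58.1 in R 4.3.3 (1 mean per time, all 15 libraries, trended variances, two-sided, Benjamini-Hochberg adjustment). This step and the recovery were tested on simulated data. Members and lists were chosen with earlier results of these data known. With no gene names, 4 members are named, by largest L24, highest level at 24 h and the 2 largest non-overlapping called falls at 72 h against 48 h. No gene list was used. Alternatives were other pseudocounts, no filter, quantile normalization, limma-voom on recovered reads, 6-library fits, a replicate block and leaving out single libraries. Python 3.11.15, numpy 2.4.6, pandas 2.3.3 and matplotlib 3.10.9 were used.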

Additional observations from a re-analysis of the deposited data

Results flagged for a closer look

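Both results below stood out in limma's direct contrast of 72 h with 48 h. The 48 and 72 h libraries had not chosen the members as a group, but these 2 were named for their falls in this contrast. Their falls and non-overlapping values were thus fixed by the pick. SMED30011148 changed by -0.78 on the log2 scale at 72 h against 48 h, with 3 of 3 libraries lower. SMED30035264 changed by -0.73 at 72 h against 48 h, also with 3 of 3 libraries lower. Groups of 3 libraries are too small for a check of single outlying libraries.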

How the results depend on the processing

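Of 110 summary values recomputed with all libraries, 98 stayed within 1.5 times the reported count or within 1 SD of the reported median. The exceptions follow. Members lower at 72 h against 48 h numbered 20 with limma-voom and 7 in the 6-library fit, and the 1 member higher there became 0 with no filter, with a pseudocount of 0.1 RPKM and with the replicate block. With a mean of at least 5 RPKM required at 24 h, 7 members peaked at 48 h and 0 at 72 h, 10 lay below 0.4 at 48 h and 22 did so at 72 h, and the median L at 48 h was 0.616. The 72 h peak count was 0 with a pseudocount of 1 RPKM and 4 after quantile normalization. The rule gave 137 members with a pseudocount of 0.1 RPKM, 91 with 1 RPKM and 154 after quantile normalization, with 100, 83 and 90 of the 108 among them. SMED30010350 was not among the members after quantile normalization. The cause of these differences was not tested.

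Leaving out libraries gave 106 to 151 members, and the numbers peaking at 24, 48 and 72 h ran from 89 to 136, 7 to 18 and 0 to 7. At 48 h, 32 to 47 lay at 0.7 or more and 16 to 44 below 0.4, with medians of 0.540 to 0.623. At 72 h these were 8 to 34, 26 to 53, and 0.448 to 0.541. Members lower at 72 h against 48 h numbered 6 to 12 and higher 0 to 0; lower at 96 h against 72 h, 11 to 24. The applications of the rule without a replicate number in all groups were chosen after seeing the data.

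Replicate numbers did not pair the libraries. Libraries of 1 number had a median correlation of deviations of 0.00 (-0.06 to 0.11 over 30 pairs), and 6 of 15 were closest on average to their own number. With the replicate block, 11 of the 13 members lower at 72 h against 48 h were still called, and SMED30035264 was not (limma adjusted p = 0.0517). In the comparison of 96 h with 72 h, which the rule touches, SMED30010350 (limma adjusted p = 0.0433) was not called with the block (0.0635), with no filter (0.0941), in the 6-library fit (0.211), after quantile normalization (0.181) or in the fits without 1 of the compared libraries, except that without 72 h replicate 1. Members under 5 RPKM at 24 h had the fewest reads, with a median of 7.0 at 0 h, and the part of depth in their calls was not tested.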

Other observations

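Across the 108 members, L24 was less correlated with L at the later times. Spearman's rho with L24 was 0.45 for L at 48 h, 0.18 at 72 h and 0.07 at 96 h, while rho was 0.55 between 48 and 72 h and 0.59 between 72 and 96 h. These are descriptions over members that share the same libraries and the same 0 h mean. The limits of the rule narrow the range at 24 and 96 h, which can by itself lower rho. Whether the order of the rises was lost therefore cannot be read from these values.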
